A study of Mus musculus with 6 samples.

Results

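Mouse genes named Spata (spermatogenesis associated) and Spag (sperm associated antigen), with the related Spatc, Spats, Spem and Spert genes, were followed from testes into mature sperm. Members were chosen by symbol alone, as every gene with a RefSeq messenger RNA (mRNA, "NM_") row whose symbol began with one of these stems, without use of any measured value. The rule found 45 members, 0.311% of the 14455 NM_ genes in the 6 samples. The current annotation holds 50 symbols of this pattern, and Spata46, Spag11a, Spata48, Spem2, Spata22 and Spertl had no NM_ row and were not analysed here.

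RNA was sequenced from 4 samples of mature sperm and 2 samples of testes of C57BL/6 mice (an inbred strain; C57BL/6J in the methods), aged 3 to 5 months per the labels, which name no treatment, while the methods give a younger range in weeks. Each sperm sample pooled sperm of several mice that swam out of the caudal epididymis and vas deferens and were washed in a buffer that lyses somatic cells, and the testes samples were whole tissue of the same mice, so they hold every germ cell stage and the somatic cells of the testis. The study left out sperm replicate 1 after comparing samples, so sperm replicates 2, 3 and 4 were compared here with testes replicates 1 and 2, and replicate 1 is given beside them. Because only 3 pools stand against 2 tissue samples, p-values measure the spread between these few samples.

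Sperm form in the testis when round spermatids condense their nucleus, build an acrosome and a tail, and shed nearly all of their cytoplasm. Transcription largely stops before this remodelling ends, so much of the RNA in mature sperm is thought to remain from RNA made earlier. The paper holds that sperm might keep some transcription. Here "kept" means only that a member had counts in sperm, and the source of the RNA was not tested. Spata and Spag are naming stems and not a single gene family. Among their products are axoneme proteins of the tail, proteins of the sperm neck and head, mitochondrial proteins, and adaptors used in many tissues.

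The region before the annotated start is shown for 4 members that stand at opposite ends of the sperm measurements below. Spem1 and Spata32 had the highest levels per kilobase in sperm, and Spata20 and Spata4 had the most testes counts among the members with 0 counts in every sperm sample. The windows hold the 250 bases before the RefSeq start in GRCm38.p6, 5′ to 3′ on the strand of the gene, at chr11:69822166-69822415 (minus) for Spem1, chr11:103218433-103218682 (minus) for Spata32, chr11:94485311-94485560 (minus) for Spata20 and chr8:54600531-54600780 (plus) for Spata4. Capitals mark a half-site of the cyclic AMP response element (CRE), TGACG read on either strand, which binds CREB and CREM factors; CREM drives many genes of round spermatids.
Spem1: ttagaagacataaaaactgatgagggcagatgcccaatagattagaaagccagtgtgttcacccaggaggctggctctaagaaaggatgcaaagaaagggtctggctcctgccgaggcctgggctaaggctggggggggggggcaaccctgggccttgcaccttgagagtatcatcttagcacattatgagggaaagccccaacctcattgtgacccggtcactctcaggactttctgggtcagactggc
Spata32: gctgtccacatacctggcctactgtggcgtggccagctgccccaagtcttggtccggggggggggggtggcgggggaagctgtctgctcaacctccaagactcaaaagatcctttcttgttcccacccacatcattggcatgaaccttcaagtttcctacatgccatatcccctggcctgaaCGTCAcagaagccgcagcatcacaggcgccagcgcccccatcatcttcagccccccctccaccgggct
Spata20: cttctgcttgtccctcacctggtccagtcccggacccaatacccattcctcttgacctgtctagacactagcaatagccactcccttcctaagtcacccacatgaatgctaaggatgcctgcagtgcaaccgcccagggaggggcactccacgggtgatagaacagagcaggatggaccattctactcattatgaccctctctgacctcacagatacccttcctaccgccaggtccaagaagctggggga
Spata4: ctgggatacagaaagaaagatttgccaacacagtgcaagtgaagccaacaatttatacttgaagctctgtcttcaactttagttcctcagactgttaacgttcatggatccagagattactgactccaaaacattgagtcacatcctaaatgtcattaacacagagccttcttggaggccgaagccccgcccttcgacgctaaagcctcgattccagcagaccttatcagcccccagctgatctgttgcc

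Of these windows, Spata32 alone held the half-site, so its presence did not separate the pair kept in sperm from the pair at 0. Across the 40 members with a window in the RefSeq table, 13 (32.5%) held the half-site on either strand, against 17.9% of all 27025 windows. The full palindrome TGACGTCA, which contains the half-site, stood before Spag4 and Spag6 (5.0% of members and 1.62% of all windows). The TATA box letters TATAAA stood before Spag7 and Spata4 (5.0% and 13.0%), and CCAAT stood before 11 members (27.5% and 34.5%), Spem1, Spata32 and Spata20 among them. These are letter matches in a fixed window and say nothing of factor binding.

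Depth set what could be seen. Values are the authors' estimated fragment counts per transcript, summed per gene over NM_ rows. Sperm replicates 1 to 4 had NM_ totals of 42390, 100027, 33511 and 54337, and the testes replicates had 322625 and 314273, which was 9.14% to 12.1% of all counts. The smallest level that can be seen, taken as 3 counts, was 30 to 89.5 CPM (counts scaled to an NM_ total of 1000000) in a sperm sample and 9.30 to 9.55 CPM in a testes sample. Pooled over sperm replicates 2 to 4 it was 15.97 CPM. Intervals and floors cover counting error only, since copies made by PCR are not independent molecules.

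Purity was checked with marker genes. Prm2, the protamine that packs sperm DNA, had counts of 45, 148, 49 and 130 in the 4 sperm samples (replicates 1 to 4), and 465 and 220 in testes. With it, the 10 late spermatid markers summed to 1274 to 2503 CPM in sperm and to 2608 and 1917 CPM in testes. Prm2 made up most of the sperm sums, and 8 of the 9 markers tested had a log2 fold change below 0 (median -1.90). Prm1 had 6, 2, 0 and 2 counts in sperm against 123 and 116 in testes, and Tnp1 had 0, 2, 0 and 0 against 98 and 86, and edgeR called both lower (adjusted p = 0.0297 and 0.0285). Odf1 and Acr were at 0 in all 4 sperm samples, and Akap4 had 0, 0, 1 and 0 counts. The 8 measured spermatocyte markers and the 4 measured spermatogonial markers were at 0 in all 4 sperm samples, and summed to 105 to 143 CPM and 21.7 to 38.2 CPM in testes. Somatic markers were not all at 0. The 6 Leydig cell markers summed to 0, 170, 1194 and 110 CPM in the sperm samples, against 580 and 541 CPM in testes, nearly all of it from Star. The 8 Sertoli cell markers summed to 0, 130, 0 and 36.8 CPM in sperm, against 363 and 421 CPM in testes, and the 6 measured epididymal markers summed to 0, 0, 358 and 92.0 CPM in sperm, against 31.0 and 82.7 CPM in testes. The epididymal sums in sperm were 12 counts of Wfdc8 in replicate 3, a gene at 0 in the other 5 samples, and 5 counts of Adam7 in replicate 4, while Cst8 was at 0 in sperm with 9 counts in each testes sample. The 6 measured leukocyte markers summed to 0, 50.0, 0 and 0 CPM in sperm, against 55.8 and 28.6 CPM in testes. In tissue samples of this kind, fewer cells of a type and less RNA per cell cannot be told apart.

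The first question was which members are kept in sperm. In testes nearly the whole set was present, with 42 members listed (a value above 0) in replicate 1 and 43 in replicate 2. Sperm replicates 1 to 4 listed 3, 24, 3 and 9 members, so replicate 2, the deepest, listed far more members than the other sperm samples. At a common depth, given below, replicate 2 would still list the most of the sperm samples. Across all NM_ genes the listed shares were 14.0%, 46.6%, 10.7% and 22.9% in sperm and 84.7% and 79.8% in testes, so the members followed the order of all genes.

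**Figure D1:**
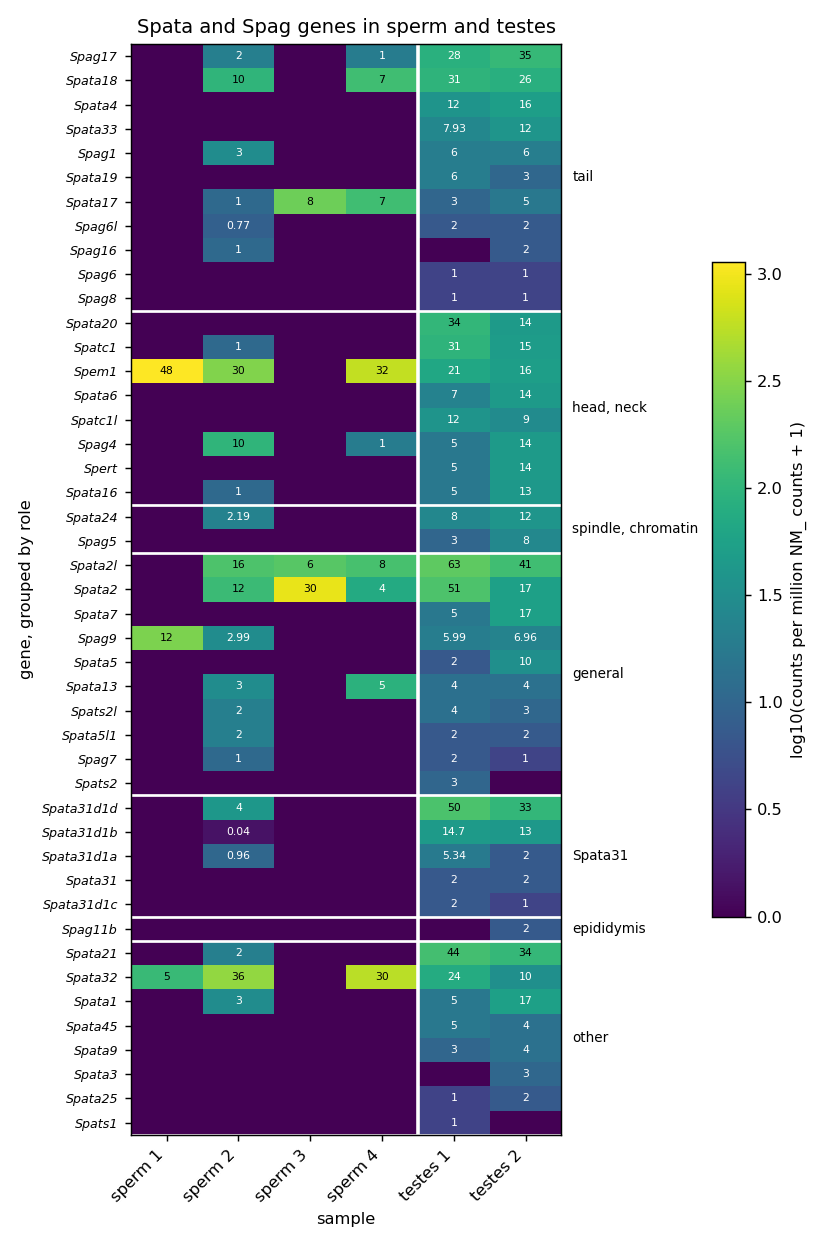
Level of each of the 45 members (rows, grouped by role) in the 6 samples (columns), coloured by log10(CPM + 1), with the count written in each cell above 0. Nearly every member has a count in both testes samples, and sperm replicates 1 and 3 have 3 members each.

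Sperm replicates 2 to 4 together listed 24 of the 45 members, 9 of them in more than 1 sample and 3 in all 3, namely Spata17, Spata2 and Spata2l. Spag17, Spag4, Spata13, Spata18, Spata32 and Spem1 were listed in 2 of the 3 samples. Every one of the 24 was listed in replicate 2, and without that replicate 9 were left. With at least 3 counts in a sample as the limit, 12 of the 45 passed. The remaining 21 members had 0 counts in all 3 samples, and 12 of these 21 would have had fewer than 3 counts in the pooled sperm samples at their testes share, so their absence was not detectable at this depth.

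Presence in sperm went with abundance in testes. The median testes count (both samples summed) was 9.0 for members listed in none of sperm replicates 2 to 4, 12.9 for those listed in 1, 35.5 in 2 and 68.0 in all 3. Of the 20 members with fewer than 10 testes counts, 8 (40.0%) appeared in 1 or more of these samples, against 30.9% of all genes at that testes count. At 10 to 29 counts it was 7 of 15 (46.7%, against 62.5%), and at 30 or more it was 9 of 10 (90.0%, against 86.2%), the exception being Spata20. The differences between these shares were not tested.

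**Figure D2:**
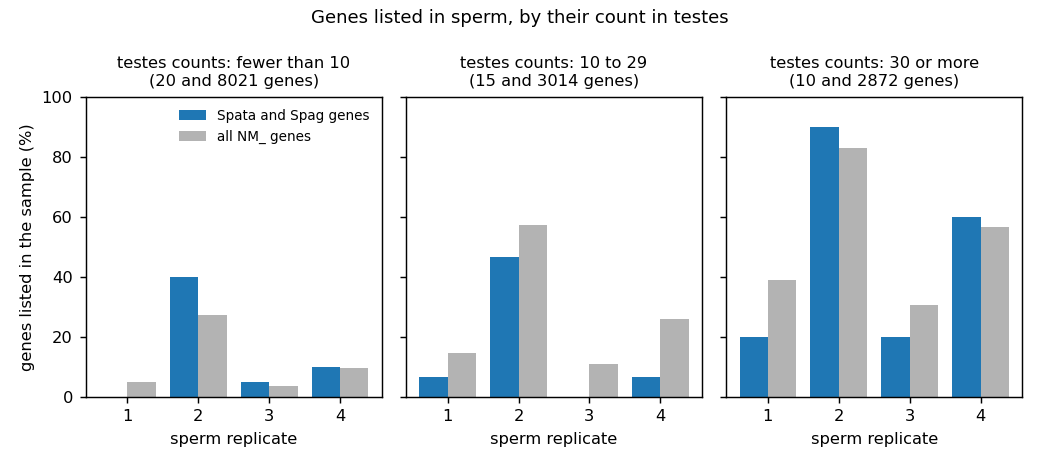
Share of genes listed in each sperm replicate (y axis, %), for the 45 members and for all NM_ genes, in 3 panels by the summed testes count. In every panel replicate 2 lists the largest share, and at 30 or more testes counts it lists 90.0% of members and 82.7% of all genes.

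The number listed was also set beside the number that each depth would give if every member kept its testes share. Replicate 2 would list 33.4 members and listed 24, a ratio of 0.718, and the same ratio over all genes was 0.725. Replicate 4 would list 27.7 and listed 9 (0.324, against 0.453 over all genes). Replicate 3 would list 22.8 and listed 3 (0.132, against 0.261), and replicate 1 would list 25.2 and listed 3 (0.119, against 0.310). At a common depth of 33511 NM_ counts, sperm replicates 2, 3 and 4 would list 14.7, 3.0 and 8.20 members and the testes samples 21.5 and 23.96. Over all genes these sperm replicates would list 4645, 1546 and 3088, and the testes samples 5976 and 5417.

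The counts themselves were spread differently among the samples, which bears on every 0 in sperm. In sperm replicate 2 and in testes, 1 was the most frequent count, held by 26.8%, 19.9% and 22.3% of the NM_ rows with at least 1 count. In sperm replicates 1 and 3 only 8.82% and 8.73% of rows held a single count, and the median count of a listed row was 8 and 9, against 3 in replicate 2, 5 in replicate 4, and 5 and 4 in testes. In sperm replicates 1 and 3 the floor of 3 counts therefore lies below the count of a typical listed gene, and 13.8% and 13.3% of the listed rows there held 1 or 2 counts, against 43.8% in replicate 2.

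**Figure D3:**
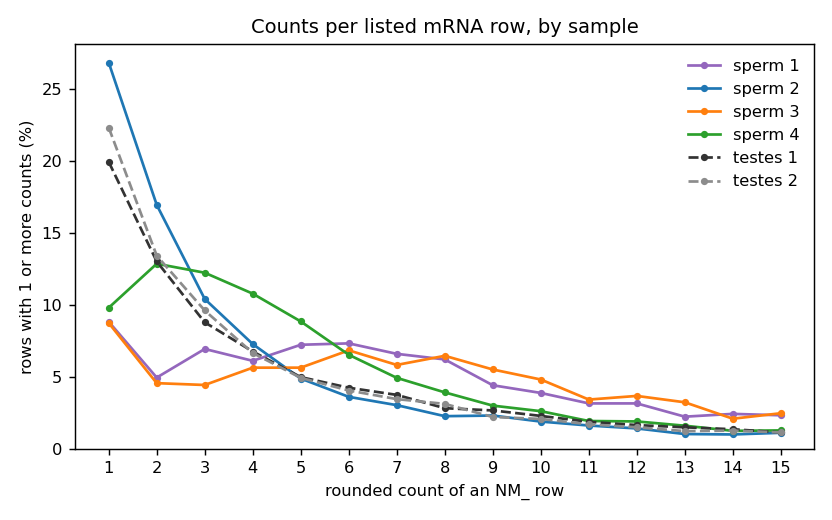
Share of listed NM_ rows (y axis, %) at each rounded count from 1 to 15 (x axis) in the 6 samples. The curves of sperm replicate 2 and both testes samples fall from a peak at 1 count, whereas those of sperm replicates 1 and 3 are flatter, with 8.82% and 8.73% of rows at 1 count.

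Summed over all 45 members, the level was nearly the same in sperm and testes. Sperm replicates 1 to 4 had 1533, 1469, 1313 and 1748 CPM, and the testes samples 1636 and 1486 CPM. The groups overlapped, with Wilson 95% intervals of 978 to 1762 CPM for sperm replicate 3 and 1503 to 1782 CPM for testes replicate 1. The means were 1510 ± 221 CPM (SD, n = 3) in sperm and 1561 ± 106 CPM (SD, n = 2) in testes, a ratio of 0.967 (exact two-sided permutation p = 0.8, where 3 against 2 samples cannot go below 0.2).

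What differed was the makeup of this sum. The 3 leading members held 55.8% of member counts in sperm replicate 2, all of them in replicate 3 and 73.7% in replicate 4, but 31.1% and 23.6% in testes. Replicate 3 listed only 3 members, so its share was fixed in advance. Replicate 4 listed 9, against 42 and 43 in testes, and few listed members also raise this share. It was not computed for other genes or at a common depth. The leading members were not the same genes in each sperm sample, since Spata32 and Spem1 led in replicates 2 and 4 and Spata2 in replicate 3. Spata32 and Spem1 together held 81.6%, 44.9%, 0.0% and 65.3% of the member counts of sperm replicates 1 to 4, against 8.52% and 5.57% of those of testes. Without this pair, which was chosen after its values were seen, the sum was 809, 1313 and 607 CPM in sperm and 1497 and 1403 CPM in testes. The ratio of the means was then 0.628, which has no test, since leaving out members that are high in sperm lowers the sperm sums by construction.

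**Figure D4:**
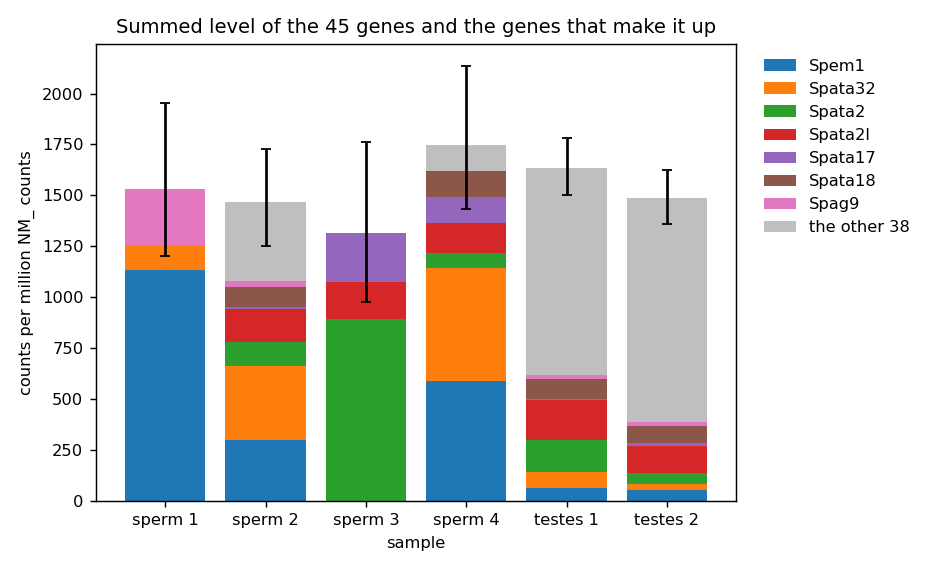
Summed level of the 45 members in each sample (bar height, CPM, with Wilson 95% intervals), coloured by the 7 members that make up most of it in sperm and grey for the rest. The bars reach 1313 to 1748 CPM in all 6 samples, and the grey part is large only in testes.

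Spem1 and Spata32, both on chromosome 11, were the members with the highest sperm level once transcript length was taken into account. Spem1 (69820871 to 69822165, GRCm38.p6) encodes a protein needed to strip cytoplasm from the head and neck of the sperm. Its counts were 48, 30, 0 and 32 in the sperm samples and 21 and 16 in testes. That is 300 CPM in sperm replicate 2, 0 in replicate 3 and 589 in replicate 4, against 65.1 and 50.9 CPM in testes. Replicates 2 and 4 thus lay above both testes samples and replicate 3 below both.

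In the pooled sperm samples Spem1 had 62 counts, where its testes share would give 10.9, a ratio of 5.68 with an exact 95% interval of 3.72 to 8.78 for counting error. The log2 fold change fitted by edgeR was 2.37 (SE 1.19, adjusted p = 0.119), which is not a call. Without sperm replicate 3 it was 2.90 with an edgeR adjusted p of 2.43e-04, and with all 4 sperm samples it was 3.11 with an adjusted p of 0.0403. Without sperm replicate 4 it was 1.48 (adjusted p = 0.454), with TMM factors 1.75 (0.417) and with DESeq2 1.49 (0.451).

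Spata32 (103208127 to 103218432) followed Spem1 closely, at 5, 36, 0 and 30 counts in the sperm samples and 24 and 10 in testes. Its level was 360, 0 and 552 CPM in sperm replicates 2, 3 and 4 and 74.4 and 31.8 CPM in testes, so its groups overlapped in the same way. The pooled count was 66 where the testes share would give 10.0, a ratio of 6.58 (4.29 to 10.3). With edgeR its log2 fold change was 2.53 (SE 1.19, adjusted p = 0.102), and without sperm replicate 3 it was 3.07 with an adjusted p of 8.50e-05. Without sperm replicate 4 it was 1.85 (adjusted p = 0.333), without testes replicate 1 it was 3.24 (0.443), with TMM factors 1.99 (0.355) and with DESeq2 1.68 (0.393). Efcab15, a coding gene whose span overlaps Spata32, had no NM_ count under that symbol in any of the 6 samples, so whether it was measured is not known. The long non-coding RNA gene Gm51920 also overlaps Spata32, and its counts were not read.

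**Figure D5:**
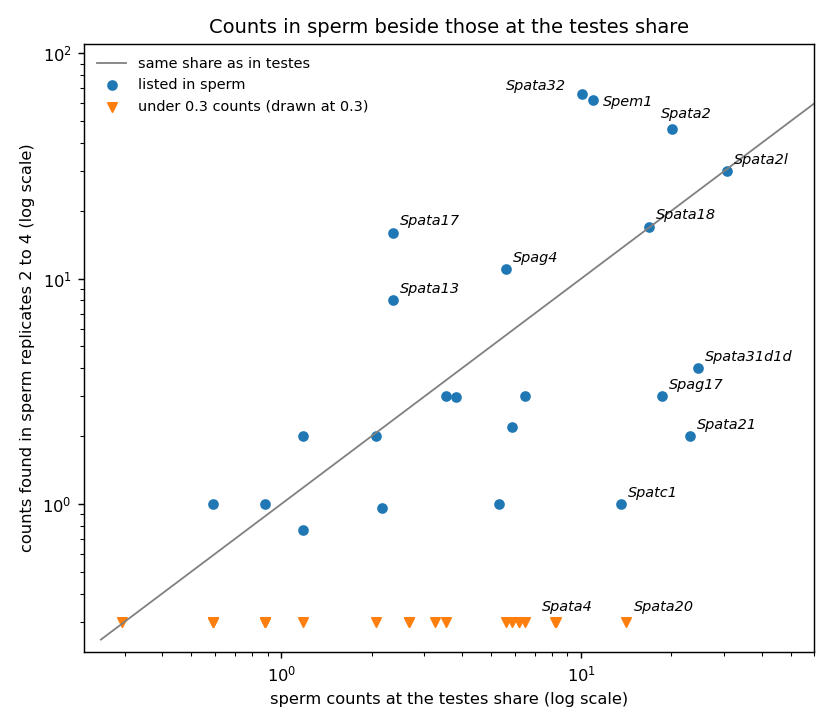
Counts found in sperm replicates 2 to 4 together (y axis, log scale) against the counts that the testes share of each member would give there (x axis, log scale), with 1 point per member and a line of equal share. Spata32, Spem1, Spata17, Spata13 and Spata2 lie above the line, Spata2l and Spata18 on it, and Spata21, Spata31d1d, Spag17 and Spatc1 far below it.

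Per kilobase, the sperm and testes orders were related only loosely. The highest levels in testes were 68.4 ± 19.3 CPM per kilobase (SD, n = 2) for Spata2l, 60.6 ± 18.6 for Spata33, 56.3 ± 9.7 for Spem1, 48.7 ± 7.9 for Spata21 and 47.8 ± 27.1 for Spata32. Neighbours in this order lay within each other's spread. In sperm the highest were 287 ± 286 (SD, n = 3) for Spem1, 273 ± 252 for Spata32, 118 ± 107 for Spata17, 90.8 ± 116 for Spata2 and 68.1 ± 6.7 for Spata2l. The first 4 of these SDs were about as large as their means, and Spata2l was the steadiest. Spata33, second in testes, was at 0 in every sperm sample. Across the 45 members Spearman's rho between the mean sperm and testes levels was 0.383, against 0.419 across all 14455 genes. Genes are not independent replicates and the values share libraries, so no p is given.

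Tail proteins formed the largest group with a known role, with 11 members, 6 of them listed in sperm replicates 2 to 4. Together they had 40.8 sperm counts where the testes share would give 61.0. Spag17, a scaffold of the central apparatus that runs along the middle of the axoneme, had 0, 2, 0 and 1 counts in the sperm samples and 28 and 35 in testes. All sperm values were thus under both testes values, and the pooled ratio was 0.161 (0.0324 to 0.494). With edgeR its log2 fold change was -2.68 (SE 1.63, adjusted p = 0.212).

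Spata17, an IQ-motif protein of the axoneme, went the other way. It had 0, 1, 8 and 7 counts in sperm and 3 and 5 in testes, which is 10.0, 239 and 129 CPM in sperm replicates 2 to 4 and 9.30 and 15.9 CPM in testes. The groups overlapped through replicate 2. The pooled ratio was 6.78 with an interval of 2.74 to 18.3, and the log2 fold change of 3.17 ± 1.66 (SE) had an edgeR adjusted p of 0.138. Gpatch2, a coding gene that overlaps it, had 0, 1, 0 and 0 counts in sperm. The long non-coding RNA genes Gm15509 and 1700007P06Rik also overlap Spata17, and their counts were not read.

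Among the mitochondrial members of the tail group, Spata18, which acts in mitochondrial quality control, had 0, 10, 0 and 7 counts in sperm and 31 and 26 in testes. The pooled ratio of 1.011 (0.551 to 1.76) and the log2 fold change of -0.15 (edgeR adjusted p = 0.948) placed it at its testes share, although 2 of the 4 sperm samples lacked it. Spata33, which anchors the phosphatase calcineurin at sperm mitochondria, was at 0 in all 4 sperm samples, with 7.93 and 12 counts in testes. It was at least 1.96-fold lower in the pooled sperm samples, with the floor of 3 counts taken over the group. Without sperm replicate 2 no such bound remains for Spata33. Spata19, of the midpiece mitochondria, was at 0 in sperm and had 6 and 3 counts in testes, which is below that floor.

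Spata4 was at 0 in all 4 sperm samples and had 12 and 16 counts in testes, so it was at least 2.75-fold lower. Spag1, which helps to assemble dynein arms in the cytoplasm, had 0, 3, 0 and 0 counts in sperm and 6 and 6 in testes (log2 fold change -0.36, edgeR adjusted p = 0.857). Spag6, Spag6l, Spag8 and Spag16 had at most 2 counts in any sample, too few for a comparison. The symbols of the paralogues Spag6 and Spag6l are exchanged between the tables and the annotation, and how shared reads were divided between them is not given in the sources used here.

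Head and neck proteins made up 8 members, 4 of them listed, and had 75.0 sperm counts where the testes share would give 67.6. Nearly all of these 75.0 counts were Spem1 (62) and Spag4 (11). Spag4, a SUN-domain protein of the spermatid nuclear envelope, had 0, 10, 0 and 1 counts in the sperm samples and 5 and 14 in testes, and its groups overlapped (log2 fold change 0.60 ± 1.43 SE, edgeR adjusted p = 0.789). Its direction turned to -0.45 with DESeq2.

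The other head and neck members were low or at 0 in sperm. Spata20, a thioredoxin-like spermatid protein, was at 0 in all 4 sperm samples and had 34 and 14 counts in testes. It was at least 4.72-fold lower in the pooled sperm samples, the largest such bound in the set, although without sperm replicate 2 the bound is 2.21. Of the 10 members with such a bound, 6 have none without replicate 2, and Spata4, Spata31d1b and Spata7 keep bounds of 1.29, 1.27 and 1.01. The edgeR adjusted p of Spata20, 0.0736, was the lowest of any member. Spatc1, the centrosome protein speriolin, had 0, 1, 0 and 0 counts in sperm and 31 and 15 in testes, a pooled ratio of 0.0737 (0.00183 to 0.432) and an edgeR log2 fold change of -3.68 (SE 1.81, adjusted p = 0.110). Spatc1l, of the head-tail junction, was at 0 in sperm and had 12 and 9 counts in testes. Spata6, needed for the connecting piece of the neck, was at 0 in sperm and had 7 and 14 counts. Each of the 2 was at least 2.06-fold lower. Spert was at 0 in sperm with 5 and 14 counts in testes (a bound of 1.87-fold), and Spata16, needed for the acrosome, had 0, 1, 0 and 0 counts against 5 and 13.

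Adaptors and enzymes used in many tissues made up 10 members, 7 of them listed, with 92.0 sperm counts where the testes share would give 72.0. Spata2, on chromosome 2 (167481136 to 167493238), joins the deubiquitinase CYLD to the TNF receptor complex. Sperm replicates 1 to 4 held 0, 12, 30 and 4 counts of it, and testes 51 and 17. Replicate 3 reached 895 CPM, where replicates 2 and 4 had 120 and 73.6 CPM and testes 158 and 54.1 CPM. Only that sample lay outside the range of testes among replicates 2 to 4. The edgeR log2 fold change of 1.71 (SE 1.07, adjusted p = 0.230) became -0.094 without replicate 3. That sample also had the highest sum of Leydig markers (1194 CPM, all of it from 40 counts of Star) and all the Wfdc8 counts. The other measured Leydig and epididymal markers were at 0 there. Whether cells of these types contributed to Spata2 in that sample was not tested. Rnf114, which overlaps Spata2, was at 0 in replicate 3.

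Its paralogue Spata2l, on chromosome 8 (123232255 to 123236263), had 0, 16, 6 and 8 counts in sperm and 63 and 41 in testes. At 160, 179 and 147 CPM in sperm replicates 2 to 4 and 195 and 130.5 CPM in testes, it had the smallest relative spread of any member listed in all 3 sperm samples. The pooled ratio was 0.978 with an interval of 0.629 to 1.48, and edgeR put the log2 fold change at -0.012 (SE 1.17, adjusted p = 0.996). Spata33, at 0 in all 4 sperm samples, lies nearby on the same chromosome (123212837 to 123222045).

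Spata13, a guanine nucleotide exchange factor, had 0, 3, 0 and 5 counts in sperm against 4 and 4 in testes, a pooled ratio of 3.39 (1.11 to 10.4) and a log2 fold change of 1.70 (edgeR adjusted p = 0.367). Spag9, the JNK scaffold JIP4, had 11.97, 2.99, 0 and 0 counts in sperm and 5.99 and 6.96 in testes. Its value in sperm replicate 1, which was not in the main comparison, was 282 CPM against at most 29.9 CPM in the other 5 samples. Spata7, a protein of the photoreceptor cilium, was at 0 in sperm with 5 and 17 counts in testes, and had a bound of 2.16-fold. Spata5l1, an AAA ATPase, had 2 counts in sperm replicate 2 and 2 in each testes sample.

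The Spata31 genes had 5 members, 3 of them listed, with 5.00 sperm counts where the testes share would give 36.9. Spata31d1d had 0, 4, 0 and 0 counts in the sperm samples and 50 and 33 in testes, with a pooled ratio of 0.163 (0.0435 to 0.434) and an edgeR log2 fold change of -2.85 (SE 1.57, adjusted p = 0.163). Spata31d1b had 0.04 counts in sperm replicate 2 and none in the others, against 14.66 and 13 in testes. Its counts and those of its paralogue Spata31d1a beside it on chromosome 13 (0.96 in sperm replicate 2, 5.34 and 2 in testes) were partly fractional, so the split of reads between these 2 genes is uncertain.

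The spindle and chromatin pair had 2.19 sperm counts where the testes share would give 9.14. Spag5, the spindle protein astrin, was at 0 in sperm with 3 and 8 counts in testes. Spata24, a DNA-binding protein, had 2.19 counts in sperm replicate 2 alone, against 8 and 12 in testes. Spag11b, a defensin-like protein secreted by the epididymis, was at 0 in all 4 sperm samples and had 0 and 2 counts in testes.

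Of the 8 members given no role here, Spata32 is described above. Spata21 had 0, 2, 0 and 0 counts in sperm and 44 and 34 in testes, a pooled ratio of 0.0869 (0.0103 to 0.325) and an edgeR log2 fold change of -3.62 (SE 1.71, adjusted p = 0.102). Spata1 had 0, 3, 0 and 0 counts in sperm and 5 and 17 in testes, and Spata45 was at 0 in sperm with 5 and 4 counts in testes. Spata3, Spata9, Spata25 and Spats1 were at 0 in sperm and had 7 counts or fewer over both testes samples.

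Over all members, 10 had more pooled sperm counts than their testes share would give (22.2%, against 28.1% of all 14430 genes with a count in the 5 samples) and 35 had fewer (77.8%, against 71.9%). The counting interval of the ratio lay above 1 for 5 members (Spata32, Spem1, Spata17, Spata13 and Spata2), which is 11.1% against 12.8% of all genes, and below 1 for 12, which is 26.7% against 16.8%. These intervals leave out the spread between sperm samples, which was wide for all 5.

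The comparison across samples was fitted on all 6828 NM_ genes with at least 10 counts over the 5 samples, and 27 of the 45 members passed that filter. At an adjusted p below 0.05 and a fold change above 2, edgeR called 0 of the 27 lower in sperm, where 3.65% of all genes tested were lower, and 0 higher, where 3.54% were. With TMM factors both member counts were also 0, and over all genes 1.32% were lower and 0.337% higher. An unadjusted p below 0.05 was reached by 14 members (51.9%) and by 39.6% of all genes. DESeq2, which gave no adjusted p for 10 of the 27, called 3 lower (12.1% of all genes), with adjusted p of 0.0277 for Spata21, 0.0288 for Spata20 and 0.0498 for Spata31d1d, and 0 higher (2.65% of all genes). Without sperm replicate 3, edgeR called Spata20 lower (log2 fold change -6.90, adjusted p = 0.0341) and Spata32 and Spem1 higher, where 10.4% of all genes were then lower and 9.01% higher. With sperm replicate 1 added, it called 8 members lower, namely Spata20, Spata31d1b, Spata33, Spata4, Spata6, Spata7, Spatc1l and Spert (adjusted p 0.0323 to 0.0331), and Spem1 higher, where 17.5% of all genes were lower and 3.83% higher.

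Of the 27 members tested, 21 (77.8%) had a log2 fold change below 0, against 66.0% of all genes, and the exceptions were Spem1, Spata32, Spata17, Spata2, Spata13 and Spag4. The median was -2.68, against -1.19 over all genes. Fitted values of genes at 0 in sperm depend on the prior count, and 10 of the 27 members (37.0%) were at 0 after rounding, against 22.5% of all genes. With such genes at the bound that 3 counts give, the medians were -0.97 and -0.54. In 16 of the 27 (59.3%) every sperm replicate from 2 to 4 lay below both testes samples, against 45% of all genes, and in 0 every one lay above, against 7.72%. The groups overlapped for the other 11. The filter is on the sum of the 5 samples, and the testes NM_ totals together were 3.39 times those of sperm. Genes therefore pass mostly through their testes counts, which favours values below 0, and these counts describe the members that passed and not the set. With filterByExpr, which kept 8 members, 4 had a log2 fold change below 0 (52.5% of all genes) and the median was 0.85.

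Other genes of the same structures were read beside the members. Of 24 genes of the central apparatus and radial spokes, 13 were tested, 3 were called lower by edgeR (Iqcg, log2 fold change -2.05; Rsph1, -7.44; Spef1, -2.06), 0 were called higher, and the median was -2.26. Of 24 genes of head shaping, the acrosome and head-tail coupling, 16 were tested, Cylc2 was called lower (-8.03), 0 were called higher, and the median was -3.33. In these lists 11 of the 13 and 15 of the 16 had a log2 fold change below 0, against 66.0% of all genes tested. Of all genes 3.65% were called lower and 3.54% higher, and their median was -1.19. Rsph1 and Cylc2 were at 0 in every sperm sample, so the size of their fold changes depends on the prior count.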

How the data were processed

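Strand-specific, rRNA-depleted paired-end libraries of sperm and testes were sequenced, and samples were grouped and numbered by their titles. The authors removed adaptors and poor reads and aligned the rest with SOAPaligner/SOAP2 per the methods, while the submitters' processing notes list HISAT and mm10. The counting program and its use of strand are not given in the sources used here. For each transcript the authors deposited an estimated count of fragments, unscaled and at times fractional, and its length. FPKM was deposited too, which the authors scaled by transcript length and mapped fragments and which was not used here. Only transcripts with a value are listed, so an absent row was taken as 0.

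Counts were summed per gene over NM_ rows, as listed for levels and rounded to whole numbers for tests. CPM is counts scaled to an NM_ total of 1000000, and levels per kilobase divide each transcript by its length. The symbol Spert is Cby2 in the annotation. All 54 member transcripts, and 16309 of 16425 NM_ rows, matched GRCm38.p6 by accession, which gave the coordinates. The spans of 24 members overlap another annotated gene, and reads of overlapping genes may be mixed.

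The test was edgeR's quasi-likelihood test (edgeR 4.0.16, R 4.3.3; two-sided) with NM_ totals as library sizes, on genes with at least 10 counts over the 5 samples, with Benjamini-Hochberg adjustment over all genes tested and a call at adjusted p below 0.05 and fold change above 2. It was tested on simulated data, where at about the spread fitted here it recovered only a small part of the planted changes, so an absence of calls does not show that members did not differ. DESeq2 1.42.0 was an alternative. Ratios to the testes share have exact 95% intervals from the pooled counts, and shares have Wilson intervals. Python 3.11.15 and scipy 1.17.1 were used.

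Named members are those called, the 12 highest per kilobase in testes and in sperm, the 6 with most testes counts among those at 0 in sperm, and the 4 nearest to no change, with others named to account for a group. Members, gene lists and tests were chosen with earlier results of these data known. Replicates differed beyond counting noise (chi-square per degree of freedom 4.93 to 12.5 in sperm and 6.92 in testes), so none were merged in the edgeR and DESeq2 fits. The pooled ratios, their intervals and the bounds do sum the replicates, and they leave this spread out. The labels give no batch.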

Additional observations from a re-analysis of the deposited data

Results flagged for a closer look

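The 4 sperm samples were searched for a sample far from the others in 11 tests. These took the summed level, the number of members listed, and each named member above 0 in more than 1 sperm sample. For normally distributed values chance gives such a sample in about 1 in 20 groups. These are low counts with many values at 0, for which that rate need not hold. Such a sample was found for 2 members. Spag9 reached 282 CPM in sperm replicate 1, with a gap to the next sample of 0.894 of the range (above Dixon's critical value for 4 samples). Spata2 reached 895 CPM in sperm replicate 3, with a gap of 0.866 of the range. Sperm replicate 1 was left out of the main comparison, and in it Spem1, at 1132 CPM, and Spag9, at 282 CPM, lay above the other 5 samples, whose highest values were 589 and 29.9 CPM. The cause of these values was not tested.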

How the results depend on the processing

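Depth limits most of these values: 18 members fell under the 10-count filter. The number called lower was 0, against 3 with DESeq2, 8 with all 4 sperm samples and 0 to 1 when 1 replicate was left out. The number called higher was 0, against 1 with all 4 sperm samples, 1 with the replicate number as a block and 0 to 2 when 1 replicate was left out (2 without sperm replicate 3). Same-numbered sperm and testes samples deviated with r of -0.019 and -0.048 over 6949 genes. Whether samples of the same number came from the same mice was not tested. The 1 call under the block was Spem1 (log2 fold change 3.34). Sperm replicates 3 and 4 have no testes sample of the same number, so the comparison under the block rests on replicates 1 and 2 alone. It thus takes in sperm replicate 1 and leaves out the 0 of Spem1 in replicate 3. The fits with all 4 sperm samples, with the block and with 1 replicate left out rest on other samples. The cause of the changes was otherwise not tested.

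Over all genes the lower and higher calls were 249 and 242, against 90 and 23 with TMM factors, 824 and 181 with DESeq2, 363 and 215 with the total over all transcripts, 1214 and 266 with all 4 sperm samples, 103 and 163 with the block, 4 and 15 with no filter and 295 and 264 with filterByExpr. The median log2 fold change of all genes was -1.83 with TMM factors, -1.43 with the total over all transcripts and -2.22 with DESeq2, and that of the members was -3.31 with TMM factors, -3.53 with DESeq2 and 0.85 with filterByExpr, which kept 8 members. It was -1.35 to -5.40 when 1 replicate was left out.

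The share ratio of 0.967 was 1.10 on length-scaled counts, 0.818 with the total over all transcripts and 0.891 to 1.03 when 1 replicate was left out. The 24 members listed became 12 at 3 counts or more, 15.99 at a common depth, and 9 to 24 when 1 sperm replicate was left out (9 without replicate 2). Of 231 fits of 21 named members, 204 kept direction and side of the threshold, 14 passed the threshold and 13 changed direction. Spag9 became 1.87 with all 4 sperm samples and 2.23 with the block, Spata17 -1.10 and Spata2 -0.76 with the block, and Spag4 -0.45 with DESeq2. When 1 replicate was left out the log2 fold change ran from -4.82 to 0.15 for Spag1, from -1.37 to 1.41 for Spag4, from -4.94 to 0.037 for Spag9, from -0.59 to 0.33 for Spata18, from -0.094 to 2.69 for Spata2, from -0.27 to 0.31 for Spata2l, from 1.48 to 2.90 for Spem1 and from 1.85 to 3.24 for Spata32. Without sperm replicate 2, which leaves them at 0 in sperm, so that values depend on the prior count, Spata1 was -5.68, Spata21 -7.48, Spata24 -5.54, Spata31d1d -7.57 and Spatc1 -6.72. Spata13 was 0.71 without sperm replicate 4, Spata17 2.26 without sperm replicate 3, and Spata20 -5.52 without testes replicate 1.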
